A study of Mus musculus with 8 samples.

Results

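Mouse molar tooth germs taken at E12.5 (embryonic age in days) were cultured for 1 day with SB431542 or with its solvent DMSO, and the RNA of the 2 groups was compared over all protein-coding genes. The members are the 21786 protein-coding genes among the 35896 genes of the deposited count table. Of these, 16633 passed the filter on low counts and entered the test, and 13172 also had a mean of at least 2 CPM, a count scaled by its library's total, over the 2 groups. Shares and medians below refer to these 13172 genes, called the measured genes. All embryos carried BRE-GFP, a GFP reporter that responds to BMP-Smad signals, and all germs grew in DMEM with 10% FBS and GlutaMAX. Besides these 2 groups the table holds E12.5 germs treated for 1 day with SIS3, which inhibits Smad3, and germs of E13.5 treated for 1 day with DMSO. The sources used here give neither the doses nor the number of germs pooled in a sample.

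Ligands of the TGF-beta and activin branch bind a type II receptor, which activates a type I receptor kinase. This kinase phosphorylates Smad2 and Smad3, which enter the nucleus with Smad4 and alter transcription, including that of extracellular matrix genes and of feedback inhibitors of the pathway. SB431542 blocks the kinases ALK5, ALK4 and ALK7, the products of Tgfbr1, Acvr1b and Acvr1c, and largely spares the BMP type I receptors. In the tooth germ, activin made by the condensing mesenchyme (derived from neural crest) below the epithelial bud is required for many teeth to pass the bud stage.

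Each group was deposited as 2 columns, and these were compared before any average was taken. Over genes with 1 annotated transcript and almost no sequence shared with other genes, the squared difference between the columns was 1.11 times the binomial sampling variance in the DMSO group (740 genes) and 1.05 times in the SB431542 group (736 genes). The ratio was 0.998 in the E13.5 group and 16.4 between the 2 SIS3 columns. The column totals differed by 0.00168% and 0.00212% in the 2 E12.5 groups compared here. For genes with 2 to 6 transcripts the ratio was higher, at 3.16 (DMSO), 3.07 (SB431542), 2.43 (E13.5) and 19.4 (SIS3). With 7 or more transcripts it was 5.04, 5.28, 3.93 and 35.3. Outside the SIS3 group, single-transcript genes were therefore near sampling noise, and the ratios of the other genes exceeded it but stayed nearer to it than the SIS3 columns did. On the value of the single-transcript genes, each of these pairs was summed and counted as 1 sample: 30975010 counts for DMSO, 28161788 for SB431542 and 17519118 for E13.5. The SIS3 columns (5995709 and 9427262 counts) remained 2 libraries. Column values printed below show how reads were divided and how counts of genes with many transcripts were estimated, and are not biological replicates.

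The comparison was therefore 1 library against 1, both from the low-input SMARTer kit. The only spread between libraries that the fit could use was that of the SIS3 pair, which was made with another kit (TruSeq v2), so no difference below has a replicate check of its own. The sources used here do not say whether the SIS3 pair stems from separate cultures, so its spread may be technical, and every SIS3 level also holds the effect of the other kit. Of 19022 genes tested with edgeR's quasi-likelihood test, 0 were called higher (0%) and 0 lower (0%), and the smallest Benjamini-Hochberg adjusted p was 0.272. By unadjusted p under 0.05 in the same edgeR fit, 28 measured genes were higher (0.213%) and 87 lower (0.66%). DESeq2's Wald test called 0 genes higher and 6 lower: Krt17, Fbln5, Aspn, Cyp1b1, Mfap4 and Col8a2. Differences are therefore described by size. At 2-fold or more, 113 measured genes were higher with SB431542 (0.858%) and 241 were lower (1.83%). Any difference at all is a weak criterion here: 6212 measured genes had a log2 fold change above 0 (47.2%) and 6960 below it (52.8%). Separation of the columns is also weak, since both SB431542 columns lay above both DMSO columns in 4897 measured genes (37.2%) and below both in 3830 (29.1%). The median log2 fold change of the measured genes was −0.02.

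Fbln5, Aspn, Col8a2 and C1qtnf3, which lay far below the DMSO level and encode secreted proteins, are shown first by the sequence before their start sites. They were chosen after their values were seen. Among the 5 markers of the comparison and the 12 genes with the lowest log2 fold change, 14 genes in all, 10 had an entry in the RefSeq promoter table (GRCm38.p6). The 250 bases before the most upstream start are given 5′ to 3′ on the gene's strand. Capitals mark CAGAC, a letter pattern bound by Smad3 and Smad4, and GGCGC, a GC-rich pattern bound by Smads, each searched on both strands, and overlapping matches run together.
Fbln5, chr12:101819120-101819369, minus strand: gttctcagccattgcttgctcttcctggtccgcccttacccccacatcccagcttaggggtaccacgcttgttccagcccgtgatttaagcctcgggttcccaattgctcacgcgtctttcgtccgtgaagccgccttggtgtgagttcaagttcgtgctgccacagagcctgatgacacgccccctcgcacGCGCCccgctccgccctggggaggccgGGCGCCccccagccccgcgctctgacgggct
Aspn, chr13:49544193-49544442, plus strand: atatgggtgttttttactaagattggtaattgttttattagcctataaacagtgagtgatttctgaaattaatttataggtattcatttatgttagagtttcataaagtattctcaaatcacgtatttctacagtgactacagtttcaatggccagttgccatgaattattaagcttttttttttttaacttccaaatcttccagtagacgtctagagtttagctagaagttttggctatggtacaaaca
Col8a2, chr4:126286544-126286793, plus strand: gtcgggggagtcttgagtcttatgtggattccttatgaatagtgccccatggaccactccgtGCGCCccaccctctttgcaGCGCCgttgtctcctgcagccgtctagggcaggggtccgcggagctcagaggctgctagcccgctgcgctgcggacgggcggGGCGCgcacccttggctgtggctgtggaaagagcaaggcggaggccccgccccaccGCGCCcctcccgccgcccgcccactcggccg
C1qtnf3, chr15:10952082-10952331, plus strand: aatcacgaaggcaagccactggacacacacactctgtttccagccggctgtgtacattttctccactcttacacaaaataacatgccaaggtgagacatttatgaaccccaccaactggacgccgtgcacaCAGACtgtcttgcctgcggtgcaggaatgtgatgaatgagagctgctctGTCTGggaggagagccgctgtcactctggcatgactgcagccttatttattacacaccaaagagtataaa
C1qtnf3 held CAGAC at 2 places, Col8a2 held GGCGC at 4 places and Fbln5 at 3, and the AT-rich Aspn window held neither. CAGAC lay in 2 of the 10 windows and in 42.2% of all 32851 RefSeq windows of this length. GGCGC lay in 6 of the 10 and in 32.0% of all. The share of G and C in these 6 ranged from 51.2% (Spock2) to 74.0% (Rasl11b), and base composition was not matched. The share over all counts every entry, and a gene can have several, whereas each named gene gave 1 window. The matches are of letters in a short window and do not locate a bound site.

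The 5 markers were each more than 3-fold lower with SB431542. Pmepa1 (ENSMUSG00000038400, chr2:173224458-173276533, minus strand) encodes a membrane protein that sequesters receptor-activated Smads and is itself induced by TGF-beta. Its level was 49.1 and 49.3 CPM in the DMSO columns and 13.2 and 13.49 CPM with SB431542, against 88.9 CPM in the E13.5 library and 42.0 and 35.3 CPM in the SIS3 libraries. The SB431542 columns were the lowest of all, with a log2 fold change of −1.93 (SE 0.41) and a 95% confidence interval of the edgeR fit from −2.81 to −1.06. Skil (ENSMUSG00000027660, chr3:31095058-31122577, plus strand) encodes SnoN, a Smad corepressor that is another feedback target. It had 170.3 and 172 CPM with DMSO, 49.5 and 47.0 CPM with SB431542, 169.8 CPM at E13.5, and 256.2 and 163 CPM with SIS3. Its log2 fold change was −1.88 (SE 0.40). Both SB431542 columns, divisions of 1 library, lay below both DMSO columns, as in 29.1% of all measured genes.

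The other markers encode matrix proteins. Fbln5 (ENSMUSG00000021186, chr12:101746565-101819055, minus strand) encodes fibulin-5, which guides elastic fibre assembly. Its columns read 46.4 and 45.4 CPM with DMSO and 5.96 and 7.10 CPM with SB431542, a log2 fold change of −2.86 (SE 0.53), against 20.7 CPM at E13.5 and 12.01 and 16.1 CPM with SIS3. Mfap4 (ENSMUSG00000042436, chr11:61485431-61488900, plus strand), a microfibril-associated glycoprotein, had 153 and 154 CPM with DMSO and 31.5 and 31.2 CPM with SB431542, a log2 fold change of −2.35 (SE 0.37). The E13.5 library had 113 CPM of Mfap4 and the SIS3 libraries 54.9 and 58.5 CPM. Aspn (ENSMUSG00000021388, chr13:49544443-49567565, plus strand) encodes asporin, a small leucine-rich protein of the periodontal ligament that binds TGF-beta. It had 34.5 and 36.5 CPM with DMSO, 4.54 and 5.75 CPM with SB431542, 57.4 CPM at E13.5 and 16.2 and 19.2 CPM with SIS3, and its log2 fold change was −2.84 (SE 0.48). For all 3, the SB431542 columns were the lowest of the 8. The edgeR adjusted p was 0.534 for Pmepa1, 0.635 for Skil, 0.384 for Fbln5 and 0.272 for Mfap4 and Aspn. Counting error alone was small beside these differences: for Pmepa1 the 95% exact interval of the log2 ratio from reads (Clopper-Pearson) ran from −2.10 to −1.77.

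**Figure D1:**
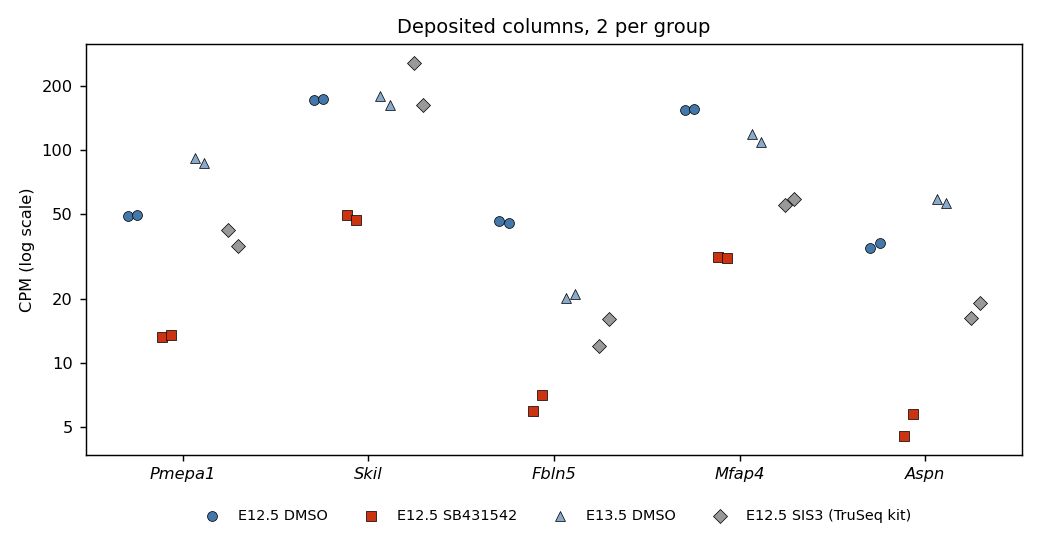
CPM (log axis) of the 5 markers in every deposited column, 2 points per gene and group. The SB431542 columns are the lowest of the 8 for each gene, and the 2 points of a SMARTer group are divisions of 1 library.

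The messages for the pathway's own components differed by role, with ligands, receptors and Smads mostly near their DMSO level and the latency genes mostly below it. Among 8 measured ligand genes, 2 were 2-fold higher and 0 lower (median log2 fold change 0.11). Inhbb, which encodes the activin beta-B subunit, had 2.26 and 1.68 CPM with DMSO and 7.46 and 6.82 CPM with SB431542 (log2 fold change 1.80, SE 0.95). Mstn, which encodes myostatin, had 2.39 and 2.71 CPM against 7.24 and 7.03 CPM (log2 fold change 1.43, SE 0.94). Both genes had low levels and lay above DMSO in every column, as did 37.2% of all measured genes. The ligands of higher level differed less: the log2 fold change was 0.37 (SE 0.36) for Tgfb2, −0.34 (SE 0.44) for Tgfb3, −0.21 (SE 0.44) for Tgfb1 and −0.42 (SE 0.76) for Inhba, the activin beta-A subunit. Scaled for exon length, as a share of all such values on the scale of CPM, the DMSO levels were 134 for Tgfb3, 87.3 for Inhba, 74.0 for Tgfb2 and 23.7 for Tgfb1, all above Inhbb (1.73).

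Latent TGF-beta is held in the matrix by binding proteins and released by integrins and thrombospondin. Of 11 measured genes for latency and activation, 1 was 2-fold lower and 0 higher, and 10 had a log2 fold change below 0 (median −0.43). In 9 of the 11 both SB431542 columns lay below both DMSO columns, against 29.1% of all measured genes, and these columns are divisions of 1 library. The lower one was Ltbp2 (−2.31, SE 0.74). It encodes a relative of the latent binding proteins found on microfibrils and is also counted in the elastic fibre and Smad2/3 target lists. Emilin1 and Ltbp4 followed, with values given under the elastic fibre list that also holds them. Next came the latent binding protein Ltbp3 (−0.57, SE 0.34). The integrin subunit Itgav had −0.43 (SE 0.33), Thbs1, which encodes the activator thrombospondin-1, −0.08 (SE 0.33), and Nrros, which holds latent TGF-beta on myeloid cells, was alone above 0 at 0.52 (SE 0.72). Of 4 measured antagonists of activin and TGF-beta, 1 was 2-fold higher (Igsf1, 1.012, SE 0.90) and 3 were below 0 (median −0.33), among them the activin-binding protein follistatin (Fst, −0.56, SE 0.42).

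None of the 12 measured receptor genes differed by 2-fold, and their median log2 fold change was 0.09. Of the genes whose products the drug inhibits, Tgfbr1 had −0.01 (SE 0.34) and Acvr1b −0.25 (SE 0.46). Acvr1c, which encodes ALK7, was below the level limit, with 7 counts with DMSO and 16 with SB431542. Tgfbr3, which encodes betaglycan, a coreceptor that presents TGF-beta2 and inhibin, had the highest value of the receptors at 0.68 (SE 0.34), with 86.1 and 97.9 CPM against 162 and 145 CPM. On the length-scaled measure the DMSO levels of the type I and II receptors were 104 for Tgfbr1, 73.2 for Tgfbr2, 30.3 for Acvr2a, 19.8 for Acvr2b, 19.5 for Acvr1b and 0.091 for Acvr1c. The 8 Smad genes likewise had 0 members past 2-fold (median −0.12). Smad7, an inhibitory Smad that is also a feedback target, had 124 and 117 CPM with DMSO and 91.7 and 93.6 CPM with SB431542, a log2 fold change of −0.43 (SE 0.35), against −1.93 for Pmepa1 and −1.88 for Skil.

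Among 14 Smad cofactors and regulators, 3 were 2-fold lower and 0 higher (median −0.05). These were Pmepa1, Skil and Ldlrad4, a relative of Pmepa1 that also restrains Smad activation. Ldlrad4 had 33.4 and 34.5 CPM with DMSO and 10.2 and 10.1 CPM with SB431542 (log2 fold change −1.79, SE 0.48), but 50.3% of its 31-base words occur in other genes, so its count is uncertain. Other cofactors had smaller differences, among them Ski (−0.14), Smurf2 (−0.16), Tgif1 (0.06) and Trim33 (−0.07).

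**Figure D2:**
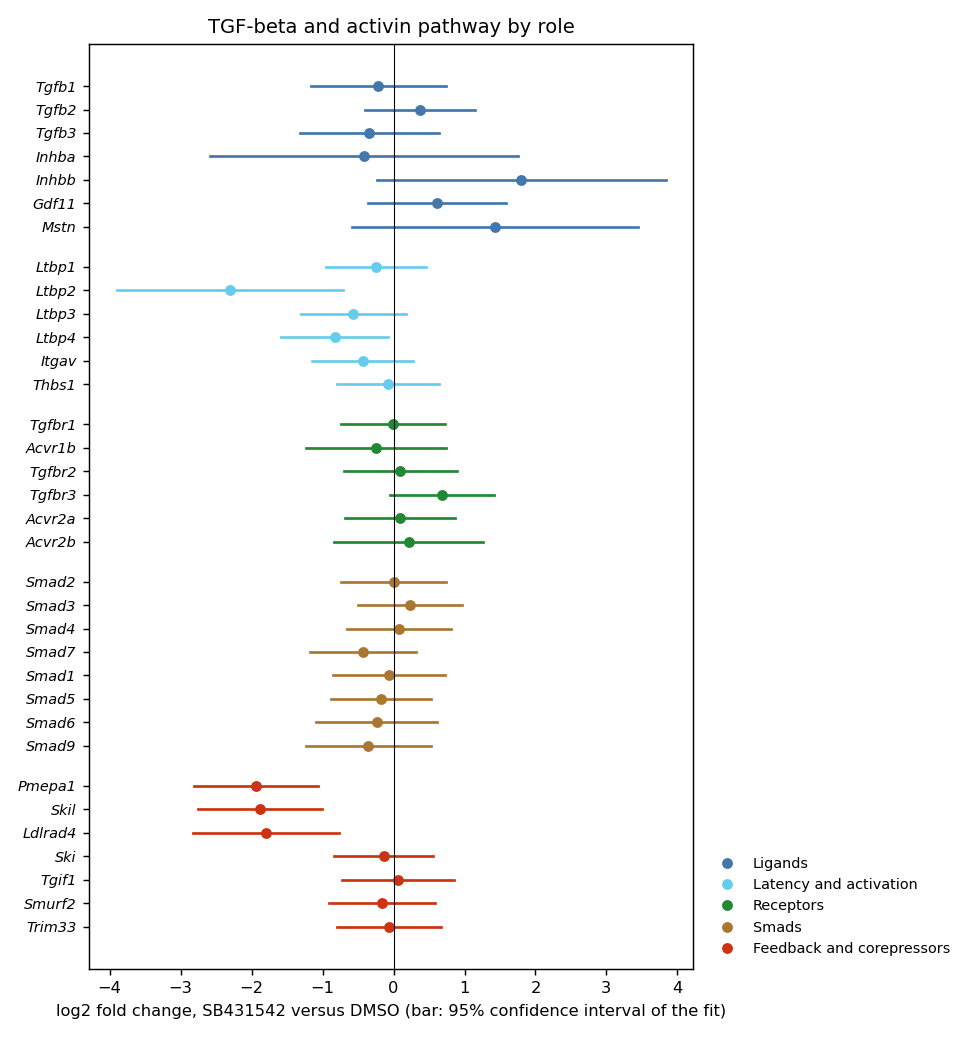
Log2 fold change of TGF-beta and activin pathway genes by role, with the 95% confidence interval of the edgeR fit as bars. Pmepa1, Skil, Ldlrad4 and Ltbp2 lie below −1 with intervals below 0, while receptors and Smads cluster near 0.

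Of 32 measured genes from a list of Smad2/3 targets, 7 were 2-fold lower, 0 higher, and 28 had a log2 fold change below 0 (median −0.38). Over all measured genes 1.83% were 2-fold lower and 52.8% below 0. The list holds the markers Pmepa1 and Skil and was written with earlier results known, so its counts are no independent test. Beside Pmepa1, Skil and Ldlrad4, the lower members were Ltbp2, Scx, Itga11 and Lox. Scx, the transcription factor scleraxis of tendon and ligament cells, had 7.88 and 6.71 CPM with DMSO and 1.56 CPM in both SB431542 columns, with 4.79 and 3.65 CPM at E13.5 and 5.504 and 3.18 CPM with SIS3 (log2 fold change −2.27, SE 0.86). Itga11, a collagen-binding integrin subunit, had 24.6 and 23.9 CPM against 9.80 and 10.4 CPM (log2 fold change −1.31, SE 0.55). Commonly used TGF-beta target genes were not all among them. Ccn2, a matricellular growth factor modulator, had −0.70 (SE 0.56), and the cell cycle inhibitor Cdkn1a −0.37 (SE 0.51). Snai2, a transcription factor of mesenchymal cells, was on the other side at 0.54 (SE 0.37).

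Genes of the extracellular matrix were mostly below their DMSO level. The 7 matrix lists (elastic fibres, small leucine-rich proteoglycans, interstitial collagens, collagen crosslinking, basement membrane, matricellular proteins, and proteases with their inhibitors) held 127 measured genes. Of these, 19 were 2-fold lower and 0 higher, 103 had a log2 fold change below 0, and the median was −0.37. Over all measured genes the shares were those given above (1.83% lower, 52.8% below 0). All lists were written with earlier results of these data known, and the matrix lists hold the markers Fbln5, Mfap4 and Aspn. The list shares therefore describe the values and are no independent test of a pattern.

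In the elastic fibre list, 4 of 20 were 2-fold lower and 17 were below 0 (median −0.54). Next to Fbln5 and Mfap4 these were Ltbp2 and Eln. Eln, elastin itself, had 143 and 145 CPM with DMSO, 60.9 and 61.6 CPM with SB431542, 214 and 212 CPM at E13.5 and 68.7 and 54.6 CPM with SIS3 (log2 fold change −1.29, SE 0.36). Ltbp2, a latent TGF-beta binding protein relative found on microfibrils, had 5.81 and 6.46 CPM against 1.21 and 1.35 CPM (log2 fold change −2.31, SE 0.74). Emilin1, which restrains TGF-beta processing and sits in elastic fibres, had 254.9 and 251 CPM against 138 and 133 CPM (−0.96, SE 0.35). Ltbp4 had −0.83 (SE 0.35), Loxl1, which crosslinks elastin, −0.91 (SE 0.36), and the microfibril backbone genes Fbn1 and Fbn2 −0.43 (SE 0.32) and −0.37 (SE 0.31). Of the 3 members above 0, Efemp1, which encodes fibulin-3, had the highest value (0.78, SE 0.51). It had 22.6 and 21.6 CPM with DMSO and 38.9 and 39.6 CPM with SB431542. Adamtsl2, which binds latent TGF-beta complexes on microfibrils, lay below the level limit with 88 counts with DMSO and 2 with SB431542.

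In the list of small leucine-rich proteoglycans, 3 of 13 were 2-fold lower and 0 higher (median −0.37). Beside Aspn these were Bgn, which encodes biglycan, with 199.9 and 210.3 CPM against 95.4 and 98.1 CPM (log2 fold change −1.14, SE 0.36), and Fmod, which encodes fibromodulin, with 5.55 and 5.36 CPM against 0.923 and 2.34 CPM (−1.79, SE 0.83). Decorin (Dcn, −0.13, SE 0.35) and lumican (Lum, −0.24, SE 0.36), of the same family, had differences within their standard errors.

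Of 15 interstitial collagen genes, 2 were 2-fold lower (Col8a2 and Col6a2), 0 higher, and 13 below 0 (median −0.41). Col8a2, a network-forming collagen, had 138 and 128 CPM with DMSO and 33.4 and 33.5 CPM with SB431542, with 135 CPM in the E13.5 library and 34.9 and 37.1 CPM with SIS3 (log2 fold change −2.04, SE 0.37). Col6a2 and Col6a1, chains of the beaded-filament collagen VI, had 834 and 825 CPM against 401 and 386 CPM (−1.13, SE 0.32) and 539.8 and 538 CPM against 289 and 292 CPM (−0.94, SE 0.33). Col1a1, a chain of the main bone and tooth collagen, had 3325 and 3343 CPM against 1892 and 1900 CPM (−0.87, SE 0.30), and Col3a1 had −0.39 (SE 0.33). Of 22 genes for crosslinking and processing, 2 were 2-fold lower. They were Lox, the main lysyl oxidase, with 189 and 194 CPM against 89.0 and 89.5 CPM (−1.15, SE 0.34), and the low-level Loxl4 (−1.21, SE 0.93).

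Of 21 matricellular genes, 5 were 2-fold lower and 0 higher (median −0.44). Thbs2, which encodes thrombospondin-2, a regulator of collagen fibrils, had 249 and 245 CPM with DMSO, 106 and 102 CPM with SB431542, 316 and 310 CPM at E13.5 and 29.7 and 16.9 CPM with SIS3 (−1.30, SE 0.42). The other four were Spp1, Tnn, Ccn4 and Thbs4, while fibronectin (Fn1, −0.38), tenascin-C (Tnc, −0.44) and periostin (Postn, −0.27) lay closer to 0. Of 21 basement membrane genes, 2 were lower (median −0.28). Among them was Col17a1, which belongs to epithelial anchorage, while the laminin and collagen IV chains of broad expression ranged from −0.42 to 0.12.

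Of 16 proteases and inhibitors, 1 was lower (Mmp9, −1.20, SE 1.88, median of the list −0.13). The tendon and ligament list had 3 of 10 lower (Scx, Fmod and Thbs4, median −0.70) and its contractile counterpart, the smooth muscle genes, 0 of 12 (median −0.29).

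**Figure D3:**
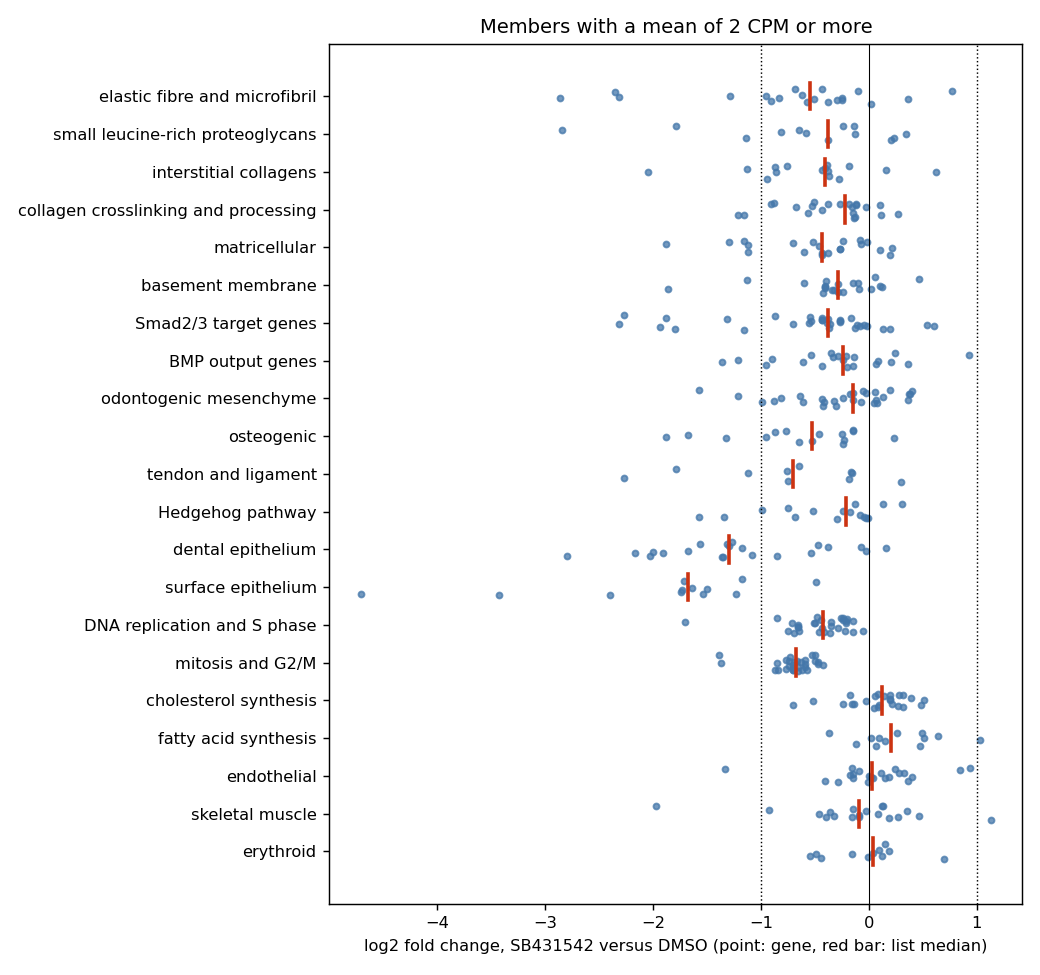
Log2 fold change, SB431542 versus DMSO, of each measured member of 21 gene lists, with the list median as a red bar and dotted lines at 2-fold. The matrix lists and the 2 epithelial lists lie mostly left of 0, while erythroid, endothelial, muscle and cholesterol synthesis genes are spread about it.

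The odontogenic mesenchyme genes, which mark the tissue that forms dental pulp and dentin, were mostly near the DMSO level. Of 29 measured, 2 were 2-fold lower (Gli1 and Sostdc1), 0 higher, and the median was −0.14. The transcription factors Pax9 (−0.05, SE 0.43), Barx1 (0.08, SE 0.34), Lhx6 (0.20, SE 0.35) and Lhx8 (0.38, SE 0.34) had confidence intervals that include 0. Msx1 had a larger difference, with 467 and 476 CPM with DMSO against 320.4 and 321 CPM (−0.61, SE 0.34), and its interval also includes 0. The 7 genes used to check the tissue label as dental mesenchyme summed to 3259 and 3281 CPM with DMSO and 3409 and 3389 CPM with SB431542, and none was at 0.

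In the osteogenic list, 3 of 15 measured members were 2-fold lower, 0 higher and 14 below 0 (median −0.53). The lower ones encode matrix proteins of mineralising tissue. Ibsp, bone sialoprotein, had 63.8 and 65.7 CPM with DMSO, 26.7 and 26.9 CPM with SB431542, 485 and 478 CPM at E13.5 and 0 and 0.106 CPM with SIS3 (−1.32, SE 0.36). Dmp1 and Spp1 were lower at low level (−1.67, SE 0.87, and −1.88, SE 1.33). Sp7, the osteoblast transcription factor osterix, had −0.95 (SE 0.38), but its DMSO columns disagreed at 66.4 and 136 CPM against 60.6 and 47.9 CPM. Runx2, the earlier osteoblast and tooth transcription factor, had −0.24 (SE 0.35). In the chondrogenic list 4 of 13 were lower (median −0.60), while the SIS3 libraries differed from each other by a median of 2.33 in this list.

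The epithelial lists had the largest shares of 2-fold lower members among the 52 lists. The list of dental epithelium had 14 of 21 measured members 2-fold lower and 0 higher (median −1.30), and the list of surface epithelium 11 of 12 lower and 0 higher (median −1.68). In the dental list 1 measured member lay above 0. The summed level of all its members fell less than its median, from 756.8 CPM with DMSO to 604.3 CPM with SB431542. For surface epithelium the sums were 213.5 and 56.25 CPM. Over both lists, 25 of 33 were lower (median −1.36). Krt14, a keratin of basal epithelial cells, had 32.4 and 34.3 CPM with DMSO, 4.54 and 5.40 CPM with SB431542, 59.5 and 54.6 CPM at E13.5, and 15.0 and 62.7 CPM with SIS3 (−2.80, SE 1.29). Trp63, the transcription factor of stratified epithelium, had 17.3 and 16.01 CPM against 5.68 and 3.55 CPM (−1.90, SE 1.13). Cdh1, E-cadherin, had 15.2 and 14.4 CPM against 5.33 and 7.46 CPM (−1.26, SE 1.17). Krt17, a keratin of periderm and stressed epithelium, was the lowest of all measured genes, with 503 counts with DMSO and 18 with SB431542 (−4.70, SE 0.79), and 15.8% of its 31-base words occur in other genes. Dsp, the desmosomal plaque protein desmoplakin, and Krt15, a basal keratin, were also among the 12 lowest genes, at −2.39 (SE 2.27) and −2.002 (SE 1.82).

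The 5 defining markers of dental epithelium (none at 0) summed to 69.9 and 70.6 CPM with DMSO, 18.7 and 21.4 CPM with SB431542 and 82.4 CPM at E13.5. All 4 measured ones were 2-fold lower. In the SIS3 pair, 2 libraries of 1 group, the same sum was 37.4 and 122 CPM, so libraries treated alike also differed in these markers. The epithelial lists accordingly differed within the SIS3 pair by medians of 1.88 and 1.496 on the log2 scale. In bulk RNA, fewer cells of a type and less RNA per cell cannot be told apart, and the part of a differing share of epithelium in any gene's value was not tested. The summed markers of other tissues moved less, although single markers did not always. Of the 4 macrophage markers 1 was 2-fold lower, and of the 4 pericyte markers 1, Rgs5 (−2.13, SE 2.16). The summed levels ranged from 286 to 298 CPM with DMSO and from 337 to 342 CPM with SB431542 for endothelium, from 23.4 to 29.8 and from 20.5 to 21.4 CPM for macrophages, from 519 to 522 and from 588 to 596 CPM for erythroid cells, from 524 to 726 and from 640.2 to 719 CPM for skeletal muscle, from 20.4 to 23.1 and from 20.2 to 23.6 CPM for neural and Schwann cells, and from 388 to 392 and from 313 to 319 CPM for pericytes. No marker of these cell types was at 0 in either group.

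**Figure D4:**
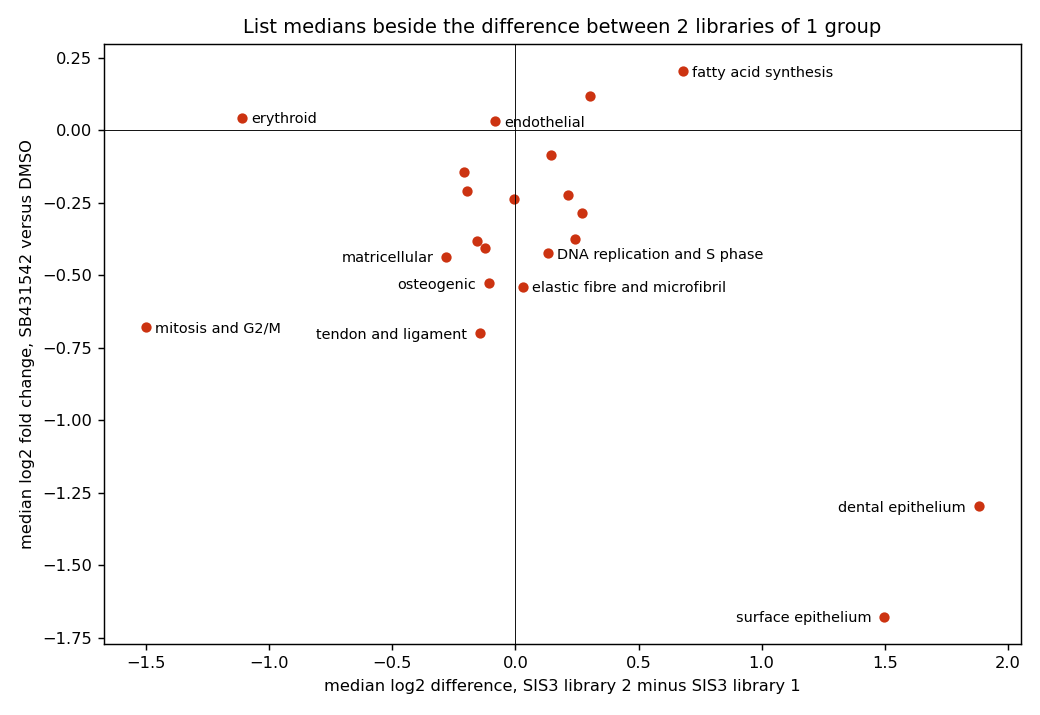
Median log2 fold change of each of 21 gene lists, SB431542 versus DMSO (vertical axis), beside the median log2 difference between the 2 SIS3 libraries (horizontal axis). Of the lists plotted, which leave out the chondrogenic list (2.33), the epithelial, mitosis and erythroid lists differ by more than 1 between the 2 SIS3 libraries, while elastic fibre, tendon and matricellular lists differ there by less than 0.3.

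The lists of other signalling pathways of the tooth germ differed from each other. In the Hedgehog list 2 of 16 were lower by 2-fold and 0 higher (median −0.21). Gli1, a transcription factor and direct target of the pathway, had 91.6 and 91.2 CPM with DMSO, 31.5 and 32.0 CPM with SB431542, 103 and 105 CPM at E13.5 and 42.7 and 62.7 CPM with SIS3 (−1.58, SE 0.39). Ptch1, the receptor and a target, had 339 and 343 CPM against 182 and 174 CPM (−0.99, SE 0.34). The ligand gene Shh, made by dental epithelium, had 6 counts with DMSO and 3 with SB431542, too few to compare. The part of the lower epithelial marker levels given above in these values was not tested. Genes that carry the signal without being targets, Smo (−0.12, SE 0.36), Sufu (−0.05, SE 0.35) and Gli3 (−0.01, SE 0.32), were near 0.

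Of 21 BMP output genes, 2 were lower by 2-fold and 0 higher (median −0.23). The most direct BMP-Smad targets, Id1 with 68.1 and 63.9 CPM against 72.9 and 71.9 CPM (0.08, SE 0.43) and Id3 (0.07, SE 0.35), had intervals that include 0. The lower members were Dlx3 (−1.36, SE 0.70), a homeobox gene of epithelium and mesenchyme, and Sostdc1, a secreted BMP and Wnt antagonist, with 61.0 and 63.2 CPM against 26.8 and 28.6 CPM (−1.22, SE 0.37). Among 10 BMP ligand genes 1 was lower (Gdf10, −1.11, SE 0.43) and Bmp4 had −0.30 (SE 0.37). Of 23 Wnt antagonists and targets 5 were lower and 0 higher (median −0.28): Notum, Dkk1, Lgr6, Sostdc1 and Wif1. The common Wnt target Axin2 (0.18, SE 0.35) and Lef1 (−0.02, SE 0.34) were close to the DMSO level. FGF ligands had 0 of 9 past 2-fold, and FGF and ERK feedback genes had 1 of 20 higher, Etv1, a transcription factor of the ETS family, with 28.0 and 27.5 CPM against 60.0 and 57.8 CPM (1.03, SE 0.45). Of 16 Notch genes 1 was lower, the repressor Hes1 (−1.09, SE 0.51).

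Genes of the cell cycle lay below the DMSO level together. All 30 measured mitosis genes had a log2 fold change below 0 (median −0.68, 2 lower by 2-fold), as did all 30 genes of DNA replication and S phase (median −0.42, 1 lower). Mki67, the proliferation marker, had 412 and 439 CPM with DMSO and 265 and 266 CPM with SB431542, with 472 and 138 CPM in the SIS3 libraries (−0.73, SE 1.32). Bub1, a spindle checkpoint kinase, had 40.3 and 44.8 CPM against 17.3 and 16.5 CPM (−1.38, SE 0.80). E2f2, a cell cycle transcription factor, had 13.4 and 15.1 CPM against 4.05 and 5.04 CPM (−1.70, SE 0.64). The mitosis list differed between the 2 SIS3 libraries by a median of −1.5, larger than its difference between SB431542 and DMSO, whereas for the S phase list the SIS3 difference was 0.13. The part of library to library variation in the mitosis genes was not tested.

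By the rule for naming genes (a mean of at least 10 CPM, columns that do not overlap, no predicted genes and little shared sequence), the 12 lowest genes were Tmem132b, C1qtnf3, Fbln5, Aspn, Cyp1b1, Dsp, Rasl11b, Mfap4, Rgs5, Col8a2, Krt15 and Spock2. Tmem132b (ENSMUSG00000070498, chr5:125531774-125792583, plus strand), which encodes a transmembrane protein, had 19.2 and 18.7 CPM with DMSO, 0.994 and 1.28 CPM with SB431542, 2.28 and 1.83 CPM at E13.5 and 7.51 and 6.36 CPM with SIS3 (−4.10, SE 0.77). Its E13.5 level was also low. C1qtnf3 (ENSMUSG00000058914, chr15:10952332-10980150, plus strand), a secreted C1q and TNF related protein, had 29.4 and 26.2 CPM against 1.85 and 2.06 CPM (−3.88, SE 1.502), with 4.003 and 0.424 CPM with SIS3. Rasl11b, a Ras-like GTPase, had 32.6 and 38.8 CPM against 6.75 and 7.67 CPM (−2.36, SE 0.46), with SIS3 libraries at 37.2 and 33.6 CPM. Spock2, which encodes the proteoglycan testican-2, had 77.9 and 70.8 CPM against 18.9 and 21.4 CPM (−1.94, SE 0.42). Rgs5, a regulator of G protein signalling known as a pericyte gene, had 66.7 and 68.2 CPM against 15.1 and 16.8 CPM (−2.13, SE 2.16), while the pericyte list as a whole had 1 of 7 lower (median −0.45).

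The 12 highest genes by this rule ranged from 1.15 to 2.99, and none came from a list of matrix or epithelium. Afap1l2, which encodes an adaptor of the cytoskeleton, came first at 2.99 (SE 1.47), but its SB431542 columns disagreed at 32.6 and 6.25 CPM against 2.39 and 2.32 CPM with DMSO. Without the first of them its log2 fold change was 1.35, and without the second 3.73. Grin2b, a subunit of the NMDA receptor, had 32.1 and 29.5 CPM against 11.1 and 4.197 CPM (1.95, SE 2.77), with 2.82 without the first DMSO column and 1.42 without the second. Cplane1, which acts in cilium formation, was the most abundant of the 12, with 415 and 362 CPM against 154 and 162 CPM (1.24, SE 0.34). Rpgrip1l, a protein of the ciliary transition zone, had 73.7 and 64.4 CPM against 29.3 and 29.4 CPM (1.18, SE 0.40). Mt1, a metallothionein, had 15.8 and 17.5 CPM against 6.65 and 5.88 CPM (1.36, SE 0.60). The others, Abca6, Unc13b, Gfod1, Cbfa2t3, Abca8b, Slc12a5 and Gpr21, ranged from 1.15 (Gpr21) to 1.37 (Abca6). Of these, Slc12a5 and Gpr21 also depended on single columns. Slc12a5 had 0.608 without the second SB431542 column and 0.835 without the second DMSO column, against 1.581 and 1.625 without the first of each. Gpr21 had 0.795 without the second SB431542 column and 1.435 without the first.

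**Figure D5:**
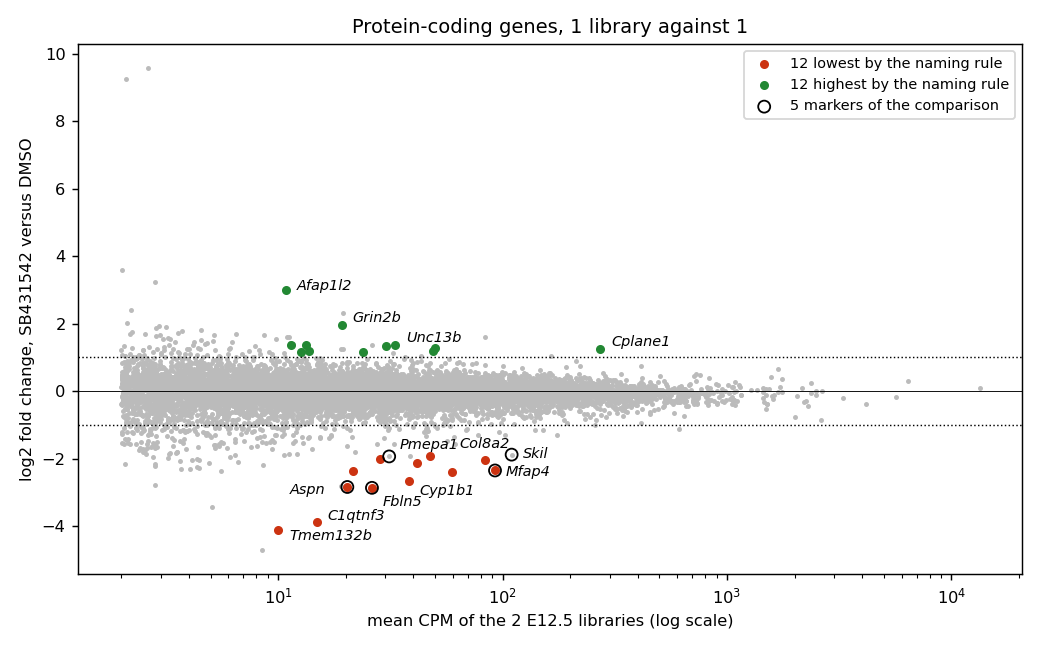
Log2 fold change, SB431542 versus DMSO, against the mean CPM of the 2 libraries (log axis) for 13172 protein-coding genes, with dotted lines at 2-fold and the 12 lowest and 12 highest named genes in colour. More genes lie below −1 (241) than above 1 (113), and the lower named genes mostly reach further from 0. The 2 highest points are gene models named only by a number or clone, with 0 counts with DMSO.

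Of the 241 genes lower by 2-fold, 19 belong to the matrix lists and 25 to the epithelial lists, which hold 127 and 33 of the 13172 measured genes. Of the 113 higher genes, 0 belong to either, which at these list sizes is close to what their share of all measured genes gives, and the difference in makeup was not tested. Past 4-fold, 30 were lower and 8 higher. Of the lower genes 19 and of the higher genes 24 were predicted genes or shared more than 20% of their sequence words with other genes, and the median mean level was 5.97 CPM for the lower genes and 4.47 CPM for the higher genes. Lists with medians near 0 included cholesterol synthesis (0 of 24 past 2-fold, median 0.12), endothelial genes (1 of 22 lower, median 0.03), erythroid genes (0 of 11, median 0.04) and TGF-beta superfamily receptors.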

How the data were processed

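The authors deposited unscaled whole-number estimated counts for each gene. Their processing notes list the build mm10 and Salmon, HISAT2, SAMtools, deepTools and DESeq2, with no role or version. The sources used here name no annotation or counting options. Genes were matched to GENCODE M21 (GRCm38) for type, place and shared 31-base words: 35507 of 35896 matched. Total RNA was used, per the labels.

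Outside the SIS3 group, paired columns were summed after the comparison given above, leaving 5 libraries, instead of the 8 columns. CPM divides by the library total, where 3 counts correspond to 0.0969 CPM (DMSO) and 0.107 CPM (SB431542). The test was edgeR 4.0.16 (R 4.3.3) on genes kept by filterByExpr, with TMM normalisation, robust quasi-likelihood fits over all 5 libraries and Benjamini-Hochberg adjustment over 19022 genes. Its 1 residual degree of freedom is that of the SIS3 pair, and the lone libraries are taken to vary like it. Variation between libraries beyond counting error came to 29.3% (common coefficient), which rests on the SIS3 pair and may be technical. The median 95% interval had a log2 half-width of 1.22. Intervals from reads cover counting error only.

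In simulated counts over 18020 genes for this comparison, the fit recovered 2.98% of changes of 2-fold, 47.8% at 4-fold and 93.9% at 8-fold, with 8 false calls. The simulation gave genes of like level the same spread and all libraries the same unchanged means, without a kit difference. The recovered shares may therefore exceed those in the real data. The main fit used no pairing of samples. Deviations of same-numbered columns correlated between -0.0234 and 0.000865. Outside the SIS3 group these columns are divisions of 1 library, so values near 0 cannot show whether the cultures were paired. Named genes are the 5 markers, the 12 lowest and 12 highest genes with a mean of 10 CPM, columns that do not overlap, at most 20% shared words and no predicted name, and members of 52 lists. The members and lists were chosen with earlier results of these data known. Some genes are not reported here. DESeq2 1.42.0 was an alternative. Promoter windows are from RefSeq, and figures were drawn with matplotlib.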

Additional observations from a re-analysis of the deposited data

How the results depend on the processing

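By edgeR's adjusted p, 0 protein-coding genes were called in either direction, also with DESeq2's size factors, protein-coding genes alone setting the library size, each E12.5 column left out (0 to 0) and, added after seeing the data, without the E13.5 library. With no filter on low counts 5 were called higher and 17 lower. With the 8 columns as replicates these numbers were 65 and 161 without a replicate block and 16 and 63 with the replicate block, and DESeq2 called 0 and 6. These 8 columns treat divisions of a library as replicates. All 79 calls of the block fit and all 6 of DESeq2 were among the 226 of the fit without the block, as were 15 of the 22 without a filter.

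Past 2-fold, the counts of 113 higher and 241 lower became 28 and 82 with a mean of 10 CPM, 515 and 773 at 1.5-fold, and 8 and 30 at 4-fold. Leaving out each column gave 129 to 150 higher and 257 to 297 lower. Without predicted genes and shared sequence (added after seeing the data) they were 87 and 222. The 26 named genes kept their direction in all 286 values, and Afap1l2 moved most (by 1.63). All 26 have columns that do not overlap, mostly by the naming rule, so leaving out a column could hardly reverse a direction. The other settings refit the same E12.5 libraries, so the kept directions are no check on the differences. Of 572 list medians, 16 changed sign, all in lists with a median within 0.198 of 0. Leaving out an SIS3 library was not run, since no residual degree of freedom remains.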

Other observations

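Genes of the following groups were chosen after their values were seen or belong to lists not described above, and are given as values only. Fatty acid synthesis genes lay above the DMSO level more often than below it, with 10 of 12 measured members above 0 and a median log2 fold change of 0.20, and with a median difference of 0.68 between the 2 SIS3 libraries. Scd1, a stearoyl-CoA desaturase, had 105 and 106 CPM with DMSO and 231 and 216 CPM with SB431542, against 70.3 and 76.4 CPM at E13.5 (1.03, SE 0.37), and was the only member past 2-fold. Its relative Scd2 (0.64, SE 0.36) and the fatty acid synthase Fasn (0.51, SE 0.40) had smaller differences.

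Several genes known from bone resorption, picked for their values and not from a fixed list, were looked at singly. Tnfsf11, which encodes RANKL, the cytokine that drives osteoclast formation, had 10.1 and 9.23 CPM with DMSO, 2.27 and 2.91 CPM with SB431542 and 19.1 and 21.1 CPM at E13.5 (-1.95, SE 0.71). Acp5, the osteoclast enzyme TRAP, had 14.7 and 11.4 CPM against 5.26 and 4.05 CPM (-1.54, SE 0.68), and Nfatc1, the osteoclast transcription factor, 63.7 and 60.5 CPM against 30.7 and 30.1 CPM (-1.08, SE 0.42). Ctsk, the protease cathepsin K, had -0.96 (SE 0.46), short of 2-fold, and Ocstamp, a gene of osteoclast fusion, had 5.29 and 5.04 CPM against 5.04 and 5.75 CPM (0.01, SE 0.70). The list of macrophage and leukocyte genes had 4 of 17 lower by 2-fold and a median of -0.42.

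The 2 cytochrome P450 genes of the aryl hydrocarbon receptor list differed in opposite directions. Cyp1b1 had 66.6 and 64.6 CPM with DMSO and 11.1 and 10.7 CPM with SB431542 (-2.65, SE 0.53), while Cyp1a1, the receptor's best-known target, had 1.23 and 1.55 CPM against 4.76 and 4.40 CPM (1.67, SE 1.10). The retinoic acid degrading enzymes Cyp26b1 and Cyp26a1 had log2 fold changes of -0.98 (SE 0.34) and -1.31 (SE 0.92). Enpp1, which makes pyrophosphate and so restrains mineral, had 62.6 and 59.7 CPM against 17.2 and 15.98 CPM (-1.93, SE 0.45), and Penk, which encodes proenkephalin, 83.9 and 81.6 CPM against 28.8 and 32.5 CPM (-1.48, SE 0.39).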
